A study of Mus musculus with 8 samples.

Results

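Acetylated chromatin of the whole adrenal gland was compared between 2-week-old and 12-week-old C57BL/6J mice, an inbred laboratory strain, in both sexes. The 4 lists compared were 4 of the series' 8 samples: 2-week female and 2-week male, each a pool of 12 glands, and 12-week female and 12-week male, each a pool of 6 glands. The labels name no altered gene and no treatment in any group. Each list holds broad peaks of histone H3 acetylated at lysine 27 (H3K27ac), found by chromatin immunoprecipitation and sequencing. The peaks of the 4 lists on chromosomes 1 to 19 were merged into 75231 union regions, and each region was classed by the lists with an overlapping peak. A pool of 30 E18.5 glands (sex not determined) and pools of 22 P1 female and 22 P1 male glands served as younger reference lists.

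H3K27ac is laid down by p300 and CBP at active promoters and enhancers, and broad stretches of it often cover the genes that define a cell type. The adrenal gland has a cortex that makes steroids and a medulla of chromaffin cells that make catecholamines. Under the capsule lies the zona glomerulosa, which makes aldosterone, and beneath it the zona fasciculata, which makes corticosterone. Young mice also have an X-zone beside the medulla, a remnant of the fetal cortex that regresses at puberty in males and later in females. Blood vessels, resident macrophages and connective tissue make up the rest of the gland.

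The 12-week lists were longer and wider than the 2-week lists. There were 49382 (females) and 46043 (males) autosomal peaks at 2 weeks, and 66594 and 52313 at 12 weeks. These covered 76.1 Mb (females) and 68 Mb (males) at 2 weeks, and 129 Mb and 101 Mb at 12 weeks. The mean covered length was 43.2 Mb higher at 12 weeks, and both 12-week values lay above both 2-week values (exact two-sided permutation test, p = 0.333, the smallest value that 6 assignments of 2 against 2 libraries can give). Each age and sex is 1 pooled library, and no model across regions was fitted to the peak lists, so the counts and lengths below are descriptions without a test. The files hold no read counts, the depth is unknown, and the absence of a peak does not show that acetylation was absent. In whole glands, fewer cells of a type and less mark per cell cannot be told apart.

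Many more regions were called at 12 weeks alone than at 2 weeks alone. Of the 75231 union regions, 6849 (9.1%) were called in both 12-week lists and in neither 2-week list, and are called 12-week regions here. By the same rule 654 (0.869%) were 2-week regions. All 4 lists shared 30191 regions (40.1%). The 2-week count lay between those of the crossed patterns, which join the sexes of different ages: 1206 regions were called in 2-week males and 12-week females only, and 504 in 2-week females and 12-week males only. A further 25272 regions (33.6%) were called in 1 list, and 16297 of these in the 12-week female list. The balance of the restricted classes depended on list length. With the 46043 strongest peaks of each list, 3511 regions were restricted to 12 weeks and 1556 to 2 weeks. With the strongest peaks of each list up to 68 Mb, the order reversed, to 103 and 8670. Among peaks whose −log10 q was 5 or more, the classes held 1108 and 25 regions.

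**Figure D1:**
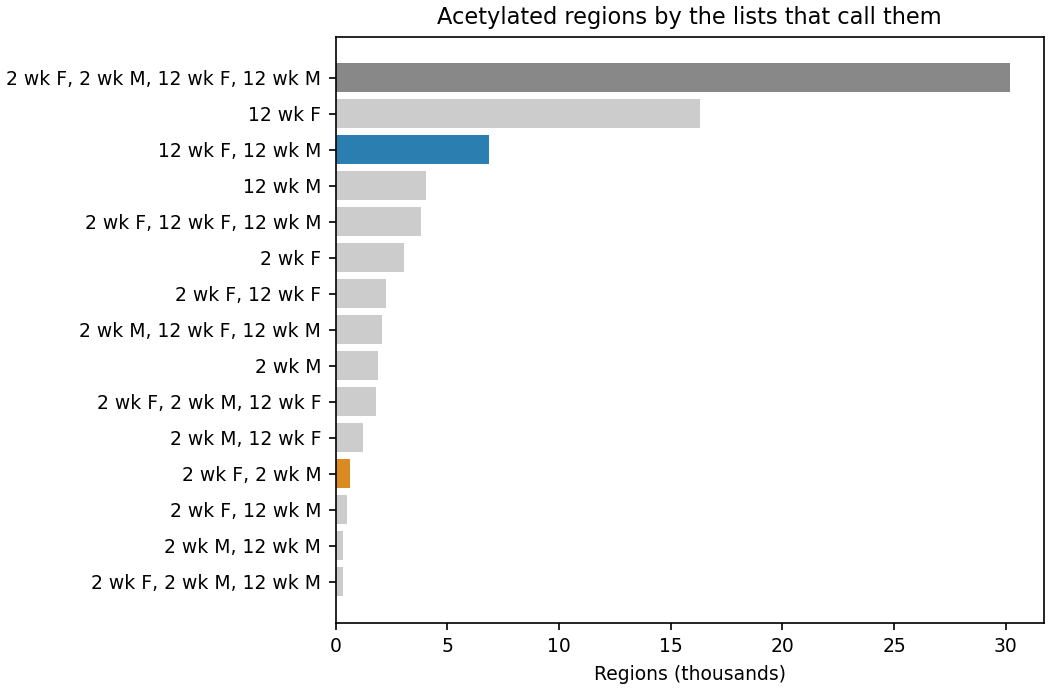
Number of union regions by the exact set of lists that call them, for 2-week (2 wk) and 12-week (12 wk) females (F) and males (M). The 30191 shared regions form the longest bar, the 12-week female list alone has 16297, and the blue 12-week class (6849) is longer than the orange 2-week class (654).

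Sequences of genes described below are given here, for the 12-week side and then for the 2-week side. Bases are written 5′ to 3′ on GRCm38, from the genome sequence or RefSeq's GRCm38.p6 promoters, and capitals mark matches to the named motifs on either strand. The Pik3c2g sequence is the centre, chr6:139736147-139736346 (plus strand), of the promoter region with the highest rank among 12-week regions. Its capitals are a match to CAAGGTCA, bound by the steroidogenic factor SF-1 (Nr5a1), and a match to the AP-1 motif TGANTCA. The Srd5a2 sequence is the centre, chr17:74045213-74045412 (plus strand), of a 7360 bp 12-week region. Its capitals match the glucocorticoid and androgen receptor element ACANNNTGT. The Cd68 promoter, chr11:69666171-69666420 (minus strand), belongs to a macrophage gene whose promoter was called at 12 weeks only, in a shared region. Its capitals are 2 AP-1 matches, of which 1 overlaps an E-box (CAGCTG), and a C/EBP match (TTGCNNAA).
Pik3c2g region: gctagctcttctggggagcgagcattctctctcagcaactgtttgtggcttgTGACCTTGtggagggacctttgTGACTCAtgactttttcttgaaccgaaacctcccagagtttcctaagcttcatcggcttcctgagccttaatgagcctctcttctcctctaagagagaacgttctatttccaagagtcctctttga
Srd5a2 region: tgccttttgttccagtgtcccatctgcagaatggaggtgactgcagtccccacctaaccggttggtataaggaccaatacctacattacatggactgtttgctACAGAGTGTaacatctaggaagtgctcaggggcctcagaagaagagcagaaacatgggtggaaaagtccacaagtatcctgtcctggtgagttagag
Cd68 promoter: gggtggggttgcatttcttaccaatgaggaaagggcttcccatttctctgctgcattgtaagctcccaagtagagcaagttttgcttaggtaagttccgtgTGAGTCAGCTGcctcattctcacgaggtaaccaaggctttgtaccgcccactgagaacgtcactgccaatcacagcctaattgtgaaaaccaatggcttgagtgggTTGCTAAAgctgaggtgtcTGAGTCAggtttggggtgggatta

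The 2-week side is given by the promoters of Dlk1, a fetal growth regulator, and Chga, a core protein of chromaffin granules, and by a coding stretch of Insm1, a transcription factor of neuroendocrine cells. The Dlk1 promoter, chr12:109452573-109452822 (plus strand), has 2 FOXO matches (GTAAACA) in capitals. The Chga promoter, chr12:102554691-102554940 (plus strand), has 2 E-box matches (CAGCTG) in capitals; its promoter was called at 2 weeks only, but the merged region there is in neither restricted class. The Insm1 stretch, chr2:146222867-146223066 (plus strand), is the centre of its 2-week region in the coding exon and matched none of the 18 motifs searched. A match describes the letters and is not evidence of binding.
Dlk1 promoter: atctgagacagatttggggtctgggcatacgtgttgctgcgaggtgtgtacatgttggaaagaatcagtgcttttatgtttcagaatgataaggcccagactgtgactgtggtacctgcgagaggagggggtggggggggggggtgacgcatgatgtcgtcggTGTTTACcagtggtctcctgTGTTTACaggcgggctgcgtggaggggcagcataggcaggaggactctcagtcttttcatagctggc
Chga promoter: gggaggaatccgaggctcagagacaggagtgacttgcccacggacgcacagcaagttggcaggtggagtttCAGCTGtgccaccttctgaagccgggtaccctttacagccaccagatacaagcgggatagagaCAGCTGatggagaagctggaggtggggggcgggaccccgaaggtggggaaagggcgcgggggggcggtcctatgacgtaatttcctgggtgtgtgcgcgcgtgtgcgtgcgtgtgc
Insm1 region: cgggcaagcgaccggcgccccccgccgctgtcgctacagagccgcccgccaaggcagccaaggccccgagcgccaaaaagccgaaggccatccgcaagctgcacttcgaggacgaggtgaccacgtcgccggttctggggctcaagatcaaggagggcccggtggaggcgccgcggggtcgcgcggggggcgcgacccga

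Both restricted classes were mostly distal, narrower than the shared regions and low in their own lists. A region was a promoter region when within 1 kb of a protein-coding transcription start (TSS). This held for 3.84% of 12-week regions (263; 95% Wilson interval 3.41% to 4.32%), 7.49% of 2-week regions (49; 5.71% to 9.77%) and 38.2% of shared regions. The intervals cover counting error only. The median width was 1132 bp for 12-week regions, 784.5 bp for 2-week regions and 2595 bp for shared regions. Distal 2-week regions lay farther from the nearest TSS (median 41710 bp) than 12-week regions (27111 bp) or shared regions (29527 bp). Of the 12-week regions, 36.8% lay within 5 kb of a shared region, against 26.0% of the 2-week regions. Centres in introns made up 57.3%, 51.7% and 54.7% of 12-week, 2-week and shared regions. The authors' −log10 q was read as a percentile, the share of peaks in the same list with an equal or lower value. The median 12-week region was at the 35.1 percentile of the 12-week female list and the 25.8 percentile of the male list. For 2-week regions the medians were 24.8 and 21.6, and for shared regions they ranged from 65.1 to 76.7.

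The sexes shared a minority of their gains. Females gained 26413 regions (called at 12 and not at 2 weeks), and 6849 of these (25.9%; 25.4% to 26.5%) were gained in males, against 20.2% of all union regions gained in males. The opposite change in males was seen at 1206. Of 15206 regions gained in males, 6849 (45.0%) were gained in females, against 35.1% of all union regions. Of 4501 regions lost in females, 654 (14.5%; 13.5% to 15.6%) were lost in males too, against 7.42% of all union regions, and 504 (11.2%) were gained in males, below the 20.2% of all union regions. Of 5583 regions lost in males, 654 (11.7%) were lost in females, against 5.98% of all union regions, and 1206 (21.6%) were gained in females, below the 35.1% of all union regions. Set against all union regions, changes in the same direction were thus above the background and opposite changes below it. The union includes the 30191 regions called in all 4 lists, which could not be gained or lost in either sex. They lower every background share here, so the excess is not read as agreement between the sexes. Of 860 genes whose promoter was gained in females, 209 (24.3%) were gained in males, and of 146 genes whose promoter was lost in females, 46 (31.5%) were lost in males. The shares over all genes (2.06% and 2.11%) include genes called in no list and cannot be set beside those of regions.

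Few genes had a promoter restricted to an age. Of 20807 autosomal protein-coding genes, 209 (1%) had a promoter called in both 12-week lists and neither 2-week list, and 46 (0.221%) the reverse. The balance depended on list length here too, with 149 and 133 genes at the same number of peaks and 20 and 788 at the same covered length. All 4 lists called 12144 promoters (58.4%). Of the 209 genes, 166 (79.4%) lay in a 12-week region. A further 34 (16.3%) lay in a shared region whose peaks came within 1 kb of the TSS at 12 weeks only; their TSSs had a median distance of 1507.5 bp to the nearest 2-week peak. Of the 46 genes, 41 (89.1%) lay in a 2-week region.

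Genes of macrophages and myeloid cells were the list with the most promoters restricted to 12 weeks. Promoters were called for 4 of 20 such genes in each 2-week list, 18 in 12-week females and 10 in 12-week males. Over all genes the number of called promoters was 12813 (females) and 12704 (males) at 2 weeks, and 13527 and 12694 at 12 weeks. The 12-week lists therefore exceeded both 2-week lists for this gene list, while the male total over all genes was no higher at 12 weeks. In 12-week females 8 more of these promoters were called than in 12-week males. The difference was there with the same number of peaks per list (4 and 4 at 2 weeks, then 17 in the older females and 8 in the older males). It shrank to 2 and 2 against 4 and 3 for peaks whose −log10 q was 5 or more, and to 3 and 4 against 4 and 4 with the same covered length. These settings were added after seeing the data.

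The 5 macrophage genes of the restricted class were Cd68, Csf1r, Mpeg1, Laptm5 and Spi1. Cd68, a lysosomal glycoprotein of macrophages, had a promoter peak at the 92.0 percentile in 12-week females and 86.9 in 12-week males. Its TSS lay in a shared region, 1480 bp and 1338 bp from the nearest 2-week female and male peaks and inside both 12-week peaks. Csf1r, the receptor that macrophages need for survival, had percentiles of 70.6 and 19.7 at 12 weeks, with its TSS 1117 bp and 2108 bp from 2-week female and male peaks. Cd68, Csf1r and Mpeg1, which encodes the pore-forming perforin-2, were thus cases of a nearby shared peak that reached the promoter at 12 weeks. Laptm5, a lysosomal protein of blood cells, lay in a 12-week region, 34094 bp and 50737 bp from the nearest 2-week female and male peaks. Its percentiles were 67.3 in 12-week females and 32.3 in 12-week males. Spi1, which encodes the myeloid factor PU.1, stood at percentiles of 45.3 in the female and 7.41 in the male 12-week list, and its male peak was 965 bp from the TSS. In younger glands the list had 11 called promoters at E18.5, 3 in P1 females and 9 in P1 males, so the 2-week lists were not the only low ones.

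Further myeloid genes stood among the 209, although they were on no list and were picked out after their values were seen. Itgax and Itgb2, integrin subunits of leukocytes, had 12-week percentiles of 50.7 and 61.6 in females and 51.3 and 32.6 in males. Their TSSs were at least 6677 bp from any 2-week peak. Tnf, the inflammatory cytokine, was at 42.2 and 24.9, Lcp2 at 53.6 and 32.6, and Ncf1, a subunit of the phagocyte oxidase, at 62.3 and 42.4. Promoter calls of the lymphocyte list were level: 4 of 20 promoters were called in each 2-week list, 4 in 12-week females and 3 in 12-week males. Off the lists, however, the 209 genes also held Zap70, Blnk and Rasgrp1, which act in lymphocytes. They too were picked out after their values were seen, and their TSSs were at least 42863 bp from any 2-week peak. Genes of antigen presentation and interferon response had 20 of 26 promoters called in 2-week females and 22 in 2-week males, then 25 and 22 in the adults. Genes of kidney, a neighbouring organ, had 0 of 14 in each of the 4 lists, and genes of liver 2 or 3 of 14.

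The other genes on the 12-week side included 2 of the X-zone list. Pik3c2g, a class II phosphoinositide 3-kinase used as an X-zone marker, had a 1947 bp region at a TSS inside the gene, at the 79.3 percentile in 12-week females and 75.4 in 12-week males. Its nearest 2-week female and male peaks were 2329 bp and 2304 bp away. Srd5a2, a steroid 5-alpha reductase, had a 7360 bp region at the 61.7 percentile in females and 83.4 in males, with the nearest 2-week peaks 38892 bp and 27495 bp away. Neither promoter was called at E18.5 or P1. Over the list, 5 of 9 promoters were called in young females and 4 in young males, against 7 and 6 in the adults. The adult counts were 5 and 5 with the same covered length, against 5 and 4, and 5 and 3 at a −log10 q of 5 or more, against 3 and 2. Akr1c18, the progesterone-degrading enzyme that defines the X-zone, had no region assigned and no promoter call in any of the 7 lists. Gata4, a transcription factor of the early gonad and adrenal primordium, was called in both 12-week lists but near the bottom of the male list (60.6 in females, 4.29 in males). It had also been called in the 3 younger lists (E18.5, P1 female and P1 male), at percentiles of 82.9, 50.4 and 60.3. The strongest remaining promoter regions of the class, by the lower of the 2 percentiles, belonged to Gdf2, Aifm3, Sorbs2, Slc52a3, Scnn1a, Rpp14, Prr29 and Gramd1c, with lower percentiles from 62.6 to 69.0. Sorbs2, Rpp14 and Gramd1c are not among the 209 genes, since another TSS of theirs was called in all 4 lists, and neither is Scnn1a, whose peak came within 1 kb of its TSS in the 12-week female list only. Scnn1a encodes the alpha subunit of the epithelial sodium channel.

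The 46 genes whose promoters were called at 2 weeks only included Chga and Insm1 of the chromaffin list, Dlk1 of the fetal and growth list, and Col14a1 and Fbln2 of the extracellular matrix list. Chga had percentiles of 31.7 in 2-week females and 60.3 in 2-week males, and Insm1 45.0 and 33.4. The nearest 12-week female and male peaks were 2508 bp and 33071 bp from the Chga TSS, and 198905 bp and 205705 bp from the Insm1 TSS. Ptprn and Cplx2, which encode a dense-core vesicle membrane protein and a regulator of exocytosis, were on no list and were picked out after their values were seen. Their percentiles were 30.8 and 5.32 in 2-week females and 21.02 and 19.1 in 2-week males. Dlk1, a membrane ligand of immature cells, stood at 36.2 and 38.2. Aspm and E2f8, genes of dividing cells that were on no list and were picked out after their values were seen, stood at 56.1 and 55.4 in females and 29.0 and 26.8 in males. The cell cycle list itself, chosen with earlier results of these data known, had 0 promoters and 0 regions restricted to 2 weeks. Col14a1 and Fbln2 had percentiles of 15.98 and 20.4 in females and 21.6 and 32.7 in males. Fst, an inhibitor of activin, was at 65.0 and 43.9, with its TSS 1045 bp from a 12-week female peak. The promoter regions with the highest lower percentile were those of Sdk2 (62.2 and 58.6), Slc35f1 and Sgsm1.

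Chromaffin-cell promoters were called least often in the 12-week male list. Of 24 chromaffin genes, the 2-week lists called 20 promoters in females and 19 in males, and the 12-week lists 20 and 9. As deposited, the female lists gave equal counts at both ages, and the male count was 10 lower at 12 weeks. With the same number of peaks per list the counts were 19, 19, 14 and 9 in the same order. With the same covered length they were 17 and 19 at 2 weeks and 2 in each 12-week list, so that both adult lists were low and the difference between the sexes was gone. Over all genes this setting called 12424 and 12704 promoters at 2 weeks, and 11385 and 11336 at 12 weeks, so that it lowered the adult counts in general, by a smaller share. Peaks with a −log10 q of 5 or more reached 2 promoters in each list. The younger lists held 23 at E18.5, 12 in P1 females and 18 in P1 males. In shared regions at chromaffin promoters, the covered bases were lowest in 12-week males for 6 of 12 genes. This held for 14.8% of all shared promoter regions. It was not particular to chromaffin genes, with 13 of 28 cell cycle, 4 of 11 capsule and progenitor and 4 of 13 adrenal transcription factor genes. Steroid enzymes had 0 of 14 and redox genes 0 of 25. For 3 of the 12 chromaffin genes both 12-week lengths lay above both 2-week lengths, and for 3 below. Over all shared promoter regions these shares were 54.7% and 3.58%. Around Gata3, a transcription factor of the sympathoadrenal lineage, peaks covered 6603 bp (females) and 6202 bp (males) at 2 weeks, and 4557 bp and 222 bp at 12 weeks. Around Dbh, which makes noradrenaline, they covered 3397 bp and 2713 bp, then 4102 bp and 188 bp. Around Th, the rate-limiting enzyme of catecholamine synthesis, they covered 3249 bp and 3088 bp, then 4617 bp and 1003 bp. All 3 genes are among the 6, as is Hand2 (2114 bp in 12-week males), a factor of the same lineage. Around Cyb561, an electron carrier of chromaffin granules, both 12-week lengths were the higher ones, with 11813 bp and 10604 bp, then 13350 bp and 12766 bp. The difference between the sexes was not tested, since each is 1 pool, and whether the pools held unequal amounts of medulla was not tested.

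Connective tissue and capsule genes also had their lowest counts in 12-week males. Promoters of extracellular matrix genes were called for 31 (females) and 29 (males) of 31 at 2 weeks, and 28 and 22 at 12 weeks. For capsule and progenitor genes the counts were 14 and 14 of 17, then 16 and 11. With the same covered length both 12-week lists were equally low, at 15 for matrix and 5 for capsule genes, against 29 and 14 in each 2-week list, while the counts over all genes were those given for this setting above. Among peaks whose −log10 q was 5 or more, the 12-week male counts (8 and 2) equalled those of 2-week males. Steroid synthesis enzymes had 14 or 15 of 15 promoters called in each of the 4 lists compared, and cholesterol, redox and clock genes had equal counts across them.

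**Figure D2:**
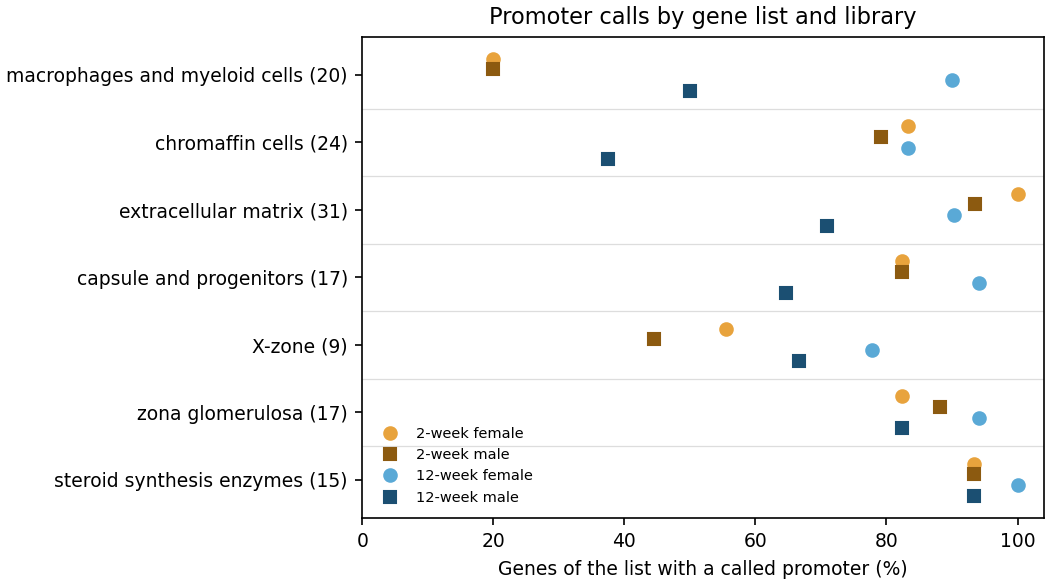
Percent of the genes of each list (number of genes in brackets) with a promoter called in each of the 4 libraries; circles are females, squares are males. Macrophage genes stand at 4 of 20 in both 2-week lists and higher in both 12-week lists, and chromaffin genes are lowest in the 12-week male list (9 of 24); with the same covered length per list, which is not plotted, both 12-week lists call 2 of 24.

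Distal regions were assigned to the gene with the nearest TSS. By that rule 4206 genes (20.2%) had a 12-week region and 575 (2.76%) a 2-week region. Plcb1, a phospholipase C that acts downstream of angiotensin II receptors, had the most, with 23 of its 80 regions restricted to 12 weeks. Of these 23, E18.5 glands had a peak at 0, P1 females at 1 and P1 males at 0. Kcnma1, a calcium-activated potassium channel, had 15 of 73, Myc 14 of 70, and Meis2, a homeobox factor, 13 of 36. Gsg1l (12 of 31), Rora (11 of 97), Rapgef5 (10 of 52), Ptprg (10 of 54), Mast4 (10 of 49) and D430042O09Rik (9 of 23) followed. These genes were ranked by the number of such regions, so their shares are a description. On the 2-week side the counts were small. Pde4d, a cAMP phosphodiesterase, had 5 of 39, Adamtsl1 4 of 21, Arid1b 4 of 72 (beside 5 restricted to 12 weeks) and Dlk1 3 of 17. The 3 Dlk1 regions were also called in each of the 3 younger lists.

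Single distal regions that ranked highest on the 12-week side were in an intron of Btbd11, 4853 bp wide and 85431 bp from its TSS (percentiles 79.8 and 79.2), near Efhb (78.4 and 81.7) and near Pcmtd1 (81.5 and 77.2). A region near 5730522E02Rik, also high at 84.1 and 74.3, was made of short repeats. Its centre, chr11:25100037-25100236 (plus strand), is shown because most of it is tandem copies that give 14 matches to the TEAD motif GGAATG, in capitals, and reads of such sequence cannot be placed with certainty.
5730522E02Rik region: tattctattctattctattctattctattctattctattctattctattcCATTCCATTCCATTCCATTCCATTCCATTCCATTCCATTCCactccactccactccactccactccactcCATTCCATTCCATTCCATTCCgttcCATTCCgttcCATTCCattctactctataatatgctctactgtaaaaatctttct

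The 3 distal 2-week regions of highest rank lay in the gene Vav2, a guanine nucleotide exchange factor, although Sardh had the nearest TSS. They were narrow, at 307 bp, 319 bp and 295 bp, and each spanned exactly 1 coding exon of Vav2, of 99 bp, 87 bp and 103 bp. Their percentiles were 92.3, 91.3 and 79.7 in 2-week females and 93.2, 97.7 and 78.8 in 2-week males. All 3 also had peaks at E18.5, at 89.3, 90.5 and 88.8, and the wider 2 had peaks in P1 males, at 64.1 and 46.5. The region chr2:27301886-27302180 is printed on the plus strand with the exon in capitals, to show how closely the peak frames it; Vav2 is on the minus strand. Whether such exon-framed peaks come from acetylated chromatin or from spliced sequence in the libraries was not tested, so their high ranks are not read as regulatory activity.
Vav2 region: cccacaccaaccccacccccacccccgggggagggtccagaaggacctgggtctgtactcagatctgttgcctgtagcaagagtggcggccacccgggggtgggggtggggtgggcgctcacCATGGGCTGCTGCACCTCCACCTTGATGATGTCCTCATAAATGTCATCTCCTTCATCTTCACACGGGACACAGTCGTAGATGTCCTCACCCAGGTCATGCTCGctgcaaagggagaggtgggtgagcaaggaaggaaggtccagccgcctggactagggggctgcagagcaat

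Neighbouring restricted regions were joined where gaps were up to 12500 bp. This gave 143 clusters of at least 3 regions among the 6849 12-week regions. Among the 654 2-week regions, 608 stood alone and the largest clusters had 2 regions, for instance at Cpa1 and Dlk1. The largest 12-week clusters, of 8 and 6 regions, lay on chromosome 14 over Loxl2 and R3hcc1 and over Entpd4 and Gm16867. All of the 51-base words in both stretches occur again on that chromosome, so the placement of their reads is uncertain. The next clusters, of 5 regions each, lay at Plcb1 (chr2:134926153-134956835 and chr2:134867118-134899314), Meis2 (chr2:116015007-116043685) and Akna.

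The share of 12-week regions, 9.1% over all regions, varied among the cortical gene lists. Of 72 regions assigned to X-zone genes, 11 (15.3%; 8.75% to 25.3%) were 12-week regions. Of these 11, 7 belonged to Srd5a2, 3 to Thrb, a thyroid hormone receptor, and 1 to Pik3c2g. For zona glomerulosa genes the share was 26 of 174 (14.9%; 10.4% to 20.99%), spread over 11 of 17 genes. Axin2 and Lef1, of the WNT pathway, had 4 of 24 and 3 of 13, Shh, a signal of the outer cortex, 4 of 18, and Vsnl1, a calcium sensor of the glomerulosa, 3 of 5. Steroid synthesis enzymes had 10 of 71 (14.1%; 7.83% to 24.0%). Among them Cyp11a1, which cleaves the cholesterol side chain, had 3 of 5 and Fdx1, its electron donor, 3 of 16. Macrophage genes had 10 of 74 (13.5%) and cell cycle genes 24 of 189 (12.7%), of which 14 were assigned to Myc. For X-zone, steroid enzyme, macrophage and cell cycle genes the Wilson interval included 9.1%, and for glomerulosa genes it lay above. The lists were chosen with earlier results of these data known, and regions are not replicates, so the intervals are a description. Other cortical lists lay below 9.1%, namely zona fasciculata (6.02%), adrenal transcription factors (6.38%), capsule and progenitors (6.92%), ACTH and cAMP signalling (7.39%) and cholesterol genes (8%). Lower still were chromaffin genes (5 of 132, 3.79%) and fat-cell genes (2 of 78, 2.56%). The shares were above the background in 12 of 13 alternative settings for X-zone, glomerulosa and cell cycle genes and in 11 of 13 for steroid enzymes and macrophage genes.

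On the 2-week side, with 0.869% of all regions, the counts per list were small. The zona fasciculata list had 5 of 83 (6.02%), of which 3 were at Dlk1 and 1 at Akr1b7, an aldose reductase-like enzyme. The remaining region was assigned to Mc2r, the corticotropin receptor, but was intergenic and 218176 bp from the nearest TSS. Dlk1 is also on the fetal and growth list, so this share is not read as one of fasciculata cells. Fetal and growth genes had 5 of 120 (4.17%), with the same 3 at Dlk1 and 1 each at the imprinted genes Mest and Grb10. Neuron and synapse genes had 3 of 68 (4.41%; 1.51% to 12.2%). Igf2bp1 and Igf2bp3, fetal RNA-binding proteins, had no region in either restricted class. Lipid genes had 5 of 141 (3.55%). Steroid synthesis enzymes, with 1 of 71 (1.41%; 0.249% to 7.56%), and immediate early genes, with 4 of 256 (1.56%; 0.609% to 3.95%), were near the background. Chromaffin genes had 4 of 132 (3.03%): 2 at Npy, 1 at Chga and 1 at Insm1. Extracellular matrix genes had 7 of 269 (2.60%), pericyte and smooth muscle genes 2 of 74 (2.70%; 0.744% to 9.33%) and capsule and progenitor genes 3 of 130 (2.31%; 0.788% to 6.57%). The kidney list had 1 of 19 (5.26%), at Cubn, an endocytic receptor of the proximal tubule. Glomerulosa, X-zone, cell cycle, endothelial and macrophage genes had 0. Nuclear receptor genes were near the background on both sides, with 33 of 400 (8.25%) and 1 of 400 (0.25%).

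Short motifs were counted in the central 500 bp of distal regions on both strands. Of the 18 motifs searched, SF-1 and AP-1 are given in full and others in part. The SF-1 motif CAAGGTCA occurred in 7.99% of 6586 distal 12-week regions (7.36% to 8.67%), 5.62% of 605 distal 2-week regions (4.05% to 7.75%) and 5.66% of distal shared regions, against 5.99% of all 61693 distal regions. Regions called only in the 12-week male list held it in 8.77% (7.93% to 9.69%), and those called only in the 12-week female list in 5.73% (5.38% to 6.11%). The AP-1 motif TGANTCA occurred in 23.6% of 12-week regions (22.6% to 24.6%), 18.2% of 2-week regions (15.3% to 21.5%) and 19.2% of shared regions, against 19.6% of all. Regions called only in the 12-week male or female list held it in 19.8% and 19.1%, but regions called in 2-week males and both 12-week lists held it in 24.0% (22.2% to 25.9%), as high a share as in the 12-week class. Both motifs were thus more frequent in 12-week regions than in shared or all distal regions, beyond counting error, while the 2-week intervals included the value of all regions as deposited. In the central 200 bp the excess over all distal regions was smaller. There SF-1 stood at 3.39% of 12-week (2.98% to 3.85%), 2.98% of 2-week (1.89% to 4.65%) and 2.52% of all distal regions, and AP-1 at 10.5% (9.76% to 11.2%), 8.26% (6.32% to 10.7%) and 8.46%. The excess of 12-week regions went from 1.99 to 0.87 points for SF-1 and from 4.02 to 2.02 for AP-1, and the 2-week SF-1 difference changed sign, from −0.37 to 0.46 points. With the same number of peaks per list, a setting added after seeing the data, the 12-week shares were 7.92% for SF-1 and 25.3% for AP-1. The 2-week shares were then 4.78% for SF-1 (3.79% to 6.01%) and 16.3% for AP-1 (14.5% to 18.3%), the latter below the share of all regions. The cAMP response element TGACGTCA was rarer in 12-week regions, at 0.243%, than over all distal regions, at 0.490%. In 2-week regions the largest differences from all distal regions were those of STAT (TTCNNNGAA), C/EBP and TEAD, at 2.34, 1.85 and 1.71 points. Their 2-week Wilson intervals included the share of all distal regions. In the central 200 bp these differences were 0.88, −0.45 and 1.34 points. Median GC content was alike in distal 12-week and 2-week regions (47.5% and 47.1%). In promoter regions it was 52.0% at 12 weeks and 59.6% at 2 weeks. The observed over expected CpG ratio there was 0.255 and 0.622, against 0.545 in shared promoter regions. The motifs in capitals above occurred as follows in all 31396 RefSeq promoters of chromosomes 1 to 19: SF-1 in 1.35%, AP-1 in 6.77%, FOXO in 3.21%, E-box in 13.0% and C/EBP in 9.66%. In the 500 bp windows of all distal regions the receptor element ACANNNTGT occurred in 16.4%, and the TEAD motif in 26.7%.

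**Figure D3:**
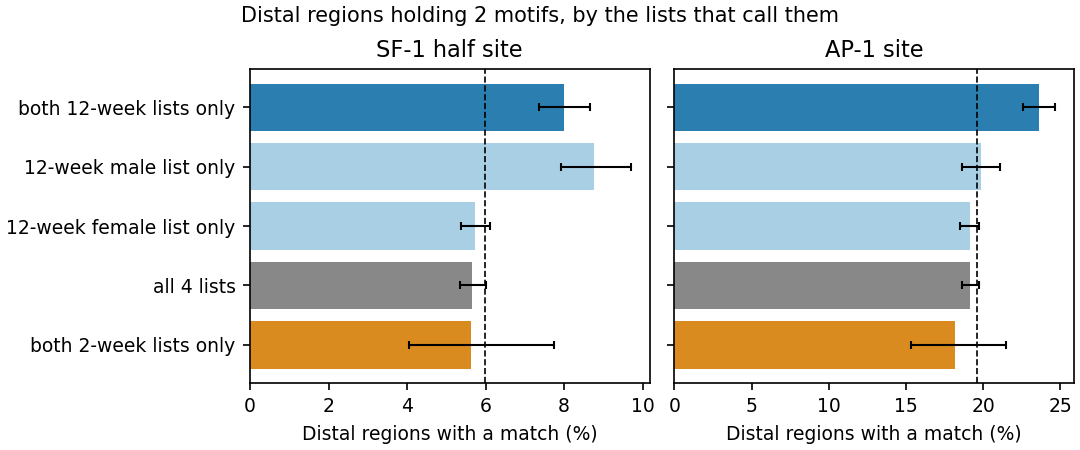
Percent of distal regions with a match to the SF-1 motif (left) or the AP-1 motif (right) in the central 500 bp, by the lists that call them; bars carry 95% Wilson intervals (counting error only) and the dashed line is the share in all distal regions. The bar for both 12-week lists reaches 7.99% on the left and 23.6% on the right, past the dashed lines at 5.99% and 19.6%.

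The 3 younger lists called 2-week regions more often than 12-week regions. At E18.5, 31.7% of 2-week and 26.1% of 12-week regions were called, against 43.6% of all union regions. In P1 females the shares were 37.2% and 18.1%, against 45.4%, and in P1 males 38.4% and 14.3%, against 44.7%. Both classes lay below the share of all regions, which the shared regions raised (73.8%, 83.0% and 84.6% in the same order). Of the 12-week regions 58.0% (3973) were called in none of the 3 younger lists, and of the 2-week regions 40.7% (266). The difference rested on having both 2-week lists. Without the 2-week female list, the 2-week share was lower than the 12-week share by 6.63 points at E18.5 (a difference of −6.63), and the differences in P1 females and males were −5.89 and −3.56. Without the 2-week male list the difference was −6.11 at E18.5, and 4.41 and 5.36 points in P1 females and males.

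Promoter regions were called in the younger lists more often than distal regions over the whole union, at 92.5%, 86.3% and 88.1% against 32.9%, 36.4% and 35.2% (E18.5, P1 female, P1 male). Of the 263 promoter regions of the 12-week class, E18.5 glands had a peak at 53.2%, P1 females at 18.6% and P1 males at 18.3%. Of the 49 promoter regions of the 2-week class, 85.7%, 57.1% and 67.3% were called in these lists. Both classes thus lay below all promoter regions. Among distal regions the shares were 25.1%, 18.1% and 14.1% for the 12-week class and 27.3%, 35.5% and 36.0% for the 2-week class. Counted by gene, 124 of the 209 genes with a 12-week promoter had it called at E18.5 and 70 in no younger list, against 41 and 2 of the 46 genes with a 2-week promoter. Over all genes 71.3% had a promoter called at E18.5. E2f8, Dlk1 and Aspm, for instance, lay at percentiles of 93.7, 88.4 and 87.6 of the E18.5 list, ranks that cannot be set against those of the shorter 2-week lists.

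**Figure D4:**
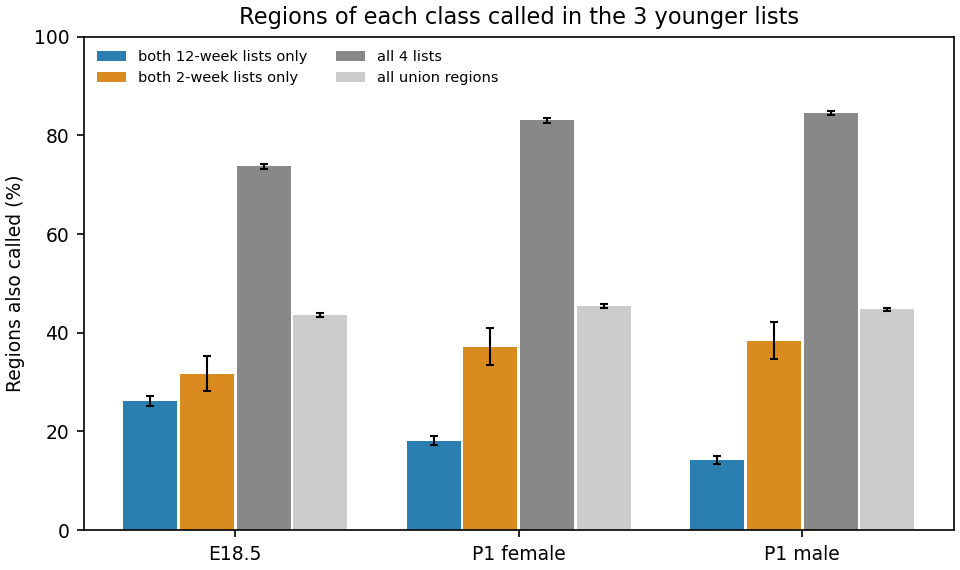
Percent of 12-week, 2-week, shared and all union regions that also have a peak in the E18.5, P1 female and P1 male lists, with 95% Wilson intervals (counting error only). The orange 2-week bars stand above the blue 12-week bars in each list, least at E18.5 (31.7% against 26.1%), and the shared regions reach 73.8% to 84.6%.

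Most shared regions were covered more widely at 12 weeks. The median covered length was 1594 bp (females) and 1453 bp (males) at 2 weeks, and 2276 bp and 1931 bp at 12 weeks. Of the shared regions, 65.8% (19878) were wider at 12 weeks in both sexes and 6.72% (2029) narrower in both. Both 12-week values lay above both 2-week values for 55.5% and below for 3.92%. At promoters these shares were 54.7% and 3.58%.

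Acetylated domains of steroid genes were wider at 12 weeks in most cases. Of 28 shared regions assigned to steroid synthesis enzymes, 25 (89.3%) were wider in both sexes and 0 narrower. At 13 of the 14 enzyme promoters with a shared region, both 12-week lengths exceeded both 2-week lengths, against 54.7% of shared promoter regions. Around Cyp11a1 peaks covered 19255 bp (females) and 16572 bp (males) at 2 weeks, and 21236 bp and 24482 bp at 12 weeks. Around Akr1cl the lengths were 13105 bp and 14401 bp, then 27598 bp and 22172 bp. Around Akr1b7 they were 7743 bp and 10201 bp, then 17998 bp and 14442 bp. The exception was Star, which carries cholesterol into mitochondria, with 17740 bp and 15322 bp, then 19170 bp and 16129 bp: the ages overlapped. Around Hsd3b1 the lengths were 8577 bp and 8287 bp, then 12392 bp and 11786 bp, and around Cyp21a1 16185 bp and 14805 bp, then 21915 bp and 19611 bp. Like Cyp11b1 and Cyp11b2, these genes have near-identical copies, so reads there may be misplaced. Around Nr5a1, which encodes SF-1 and switches on these enzymes, the lengths were 28665 bp and 29923 bp, then 44768 bp and 38734 bp. For Nr2f2, an orphan receptor, they were 30546 bp and 29103 bp, then 30585 bp and 30100 bp, nearly level. Over the list of adrenal transcription factors, which holds Nr5a1, 55 of 102 shared regions (53.9%) were wider in both sexes, and over ACTH and cAMP signalling genes 43 of 84 (51.2%), both below the 65.8% of all shared regions.

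Other lists differed in this measure. Regions wider in both sexes made up 14 of 15 for lymphocyte genes, 11 of 17 (64.7%) for macrophage genes, 25 of 27 for antigen presentation and interferon genes, 53 of 68 for zona glomerulosa genes and 85 of 107 for WNT genes. For chromaffin genes they were 9 of 34 (26.5%) and for fat-cell genes 8 of 23 (34.8%), below the 65.8% of all shared regions. At cell cycle promoters both 12-week lengths were above both 2-week lengths for 10 of 28 genes and below for 7.

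The widest gains were at Fads2, a fatty acid desaturase, where a region on chromosome 19 (10052030 to 10115661) was covered over 26358 bp (females) and 26575 bp (males) at 2 weeks, and 58534 bp and 51570 bp at 12 weeks. A distal region in Cacna1c, an L-type calcium channel gene, had 21320 bp and 18613 bp, then 40795 bp and 40775 bp. At Gprc5b, an orphan G protein-coupled receptor, the lengths were 4339 bp and 3683 bp, then 21805 bp and 20902 bp. These regions were chosen for their change in both sexes, so the distance between the ages is a description. Regions that narrowed were shorter. A distal Nfia region had 5417 bp and 3709 bp, then 1141 bp and 976 bp, and an Ergic1 promoter region 9045 bp and 7104 bp, then 4729 bp and 4503 bp. At Ren1, the renin gene, the lengths were 4559 bp and 6450 bp at 2 weeks and 1693 bp and 4045 bp at 12 weeks.

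**Figure D5:**
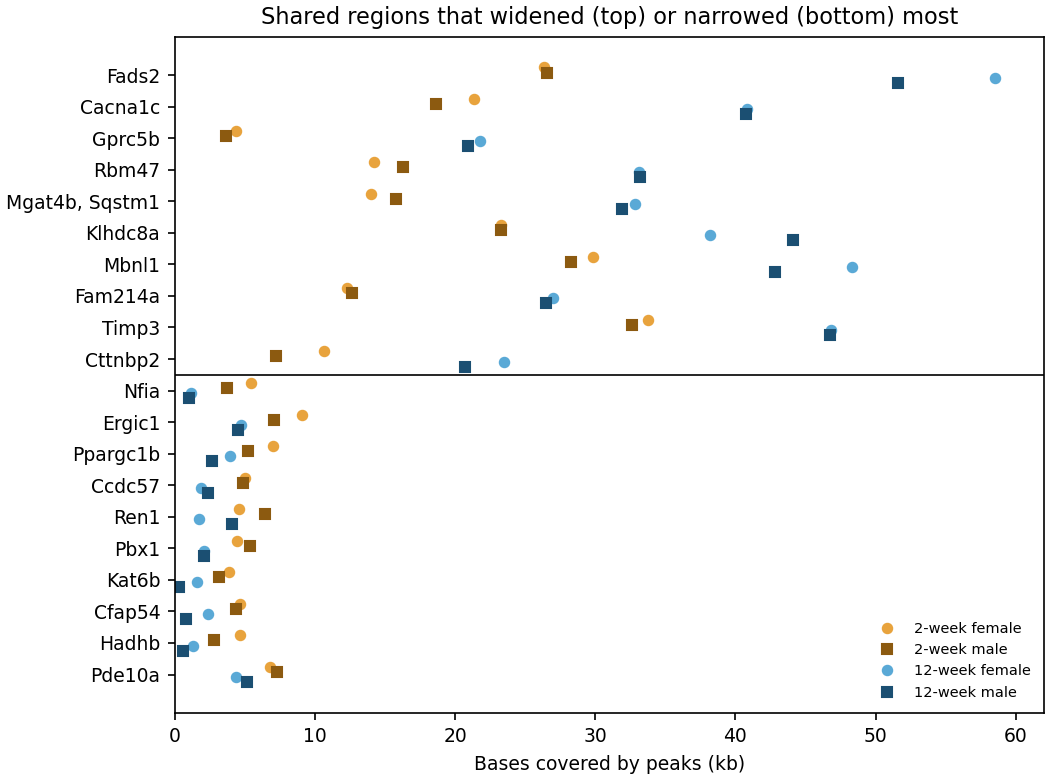
Bases covered by peaks (kb) in each of the 4 libraries for the 10 shared regions that widened most in both sexes (top) and the 10 that narrowed most (bottom), named by nearest gene; circles are females, squares males. At Fads2 coverage went from 26358 bp and 26575 bp at 2 weeks to 58534 bp and 51570 bp at 12 weeks, while the narrowed regions were covered over at most 9045 bp at 2 weeks.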

How the data were processed

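Per the submitters' processing notes, the tools were CASAVA 1.8.2, Bowtie2 2.3.4.3, MACS2 2.1.1 and deepTools 3.2.2.0, with build mm10 (GRCm38). The control library used for calling is not given in the sources used here. Each ChIP library has 1 deposited broad peak list, with a score, a fold enrichment and a −log10 p and −log10 q for each peak, computed by the authors' caller. The score and the fold enrichment were not used in any result. The deposited −log10 q depends on depth and served only to rank and filter peaks within a list. The input DNA library from 12-week females was not used here.

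Peaks on chromosomes 1 to 19 of the 4 lists were merged where they overlapped, and an overlap of 1 base with a peak sufficed for a call. Genes came from GENCODE release M21. In simulated lists with known patterns, the class totals matched those planted (15240 regions), which checks the code only. The covered bases of the 12-week male list were checked against bedtools 2.31.1 (0 of 75231 wrong). Python 3.11.15, NumPy 2.4.6, SciPy 1.17.1 and matplotlib 3.10.9 were used. The 30 gene lists hold 595 genes, of which 581 were used. The members and lists were chosen with earlier results of these data known. Regions were named by rule: the 10 per class and place whose lower percentile was highest, the 10 genes with the most restricted regions, the 10 largest clusters, and the 10 shared regions that widened or narrowed most. Alternatives were a −log10 q of at least 5 or 2, equal peak number, equal covered length, 50% coverage, merging across 1 kb, 1 kb bins, a promoter window of 0.5 kb, a motif window of 200 bp, the union of 7 lists, regions within 20 kb of the gene body and leaving out each library.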

Additional observations from a re-analysis of the deposited data

Results flagged for a closer look

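For 5 gene lists the number of called promoters rose from 2 to 12 weeks in females and was lower at 12 weeks in males. The change in females exceeded that in males by 5 genes for capsule and progenitor genes, by 4 for WNT pathway genes, and by 3 each for zona glomerulosa, pericyte and smooth muscle, and erythroid genes. Over all genes the called promoters went from 12813 to 13527 in females and from 12704 to 12694 in males. The split was not there in every setting: with the same number of peaks the female counts were level for WNT genes (21 and 21) and for pericyte and smooth muscle genes (10 and 10). With the same covered length the capsule counts were 14 in both 2-week lists and 5 in both 12-week lists. At a −log10 q of 5 or more, WNT genes went from 9 to 11 in males. Each change compares 1 library with 1 library, the difference between the sexes was not tested, and the 12-week female list is the longest of the 4.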

How the results depend on the processing

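The balance of the classes rested most on list length. For peaks with a −log10 q of 5 or more, 12-week, 2-week and shared regions numbered 1108, 25 and 9193, and at 2 or more, 3624, 216 and 18870. With the same number of peaks there were 3511 and 1556 restricted regions, with the same covered length 103 and 8670 (16446 shared), with 50% coverage 10483 12-week and 15535 shared regions, and in 1 kb bins 25759, 1751 and 88056. Leaving out a library gave 8920 to 23915 12-week and 1001 to 3783 2-week regions. The log2 ratio of the restricted classes (3.39) was 5.47, 4.07, 1.17, −6.40, 3.86 and 3.88 in the order above, and 1.24 to 4.58 without a library. Genes with a 12-week promoter numbered 20 with the same covered length and 254 to 685 without a library. Genes with a 2-week promoter numbered 12 at a −log10 q of 5 or more, 133 and 788 with the same number and length, and 57 to 305 without a library.

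The promoter share of 12-week regions was 20.04%, 5.82%, 4.67%, 7.77%, 10.04% and 5.80% in the same 6 settings, and 2.87% to 4.18% without a library. That of 2-week regions was 48% and 16.7% by −log10 q, 10.7% with the same length, 12.2% with 50% coverage, and 4.71% to 12.6% without a library. The 2-week minus 12-week difference at E18.5 (5.52 points) was 49.3, 15.4, 10.2, 14.9 and 12.2 in the first 5 settings and −6.63 to 16.3 without a library, being −6.11 without 2-week males. In P1 females it was 26.5 and 45.3 with the same number and length, and −5.89 to 31.3 without a library. In P1 males it was 36.4, 17.9, 31.2, 43.0, 19.8 and 19.4 in the 6 settings, and −3.56 to 35.2 without a library. The causes were not tested.

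Female gains seen in males made up 15.7%, 19.2%, 28.9%, 13.9%, 28.5% and 31.5% in the 6 settings and 27.1% when peaks were merged across 1 kb. Female losses seen in males made up 12.4%, 8.37%, 21.1%, 54.6%, 12.7%, 16.04% and 18.1%. Shared regions wider in both sexes made up 64.8%, 68.0%, 66.96%, 67.3% and 60.7% in the first 5 settings. Of the values for gene lists and motifs, 1004 were labelled unchanged and 369 moved. Shares were judged by their counting interval, and counts of promoters by a fixed ratio, with equal counts taken as unchanged. The labels give no replicate numbers, so no fit with a replicate block was made; ages were paired within a sex only to count changes seen in both sexes. Peak calls depend on sequencing depth, which is unknown here.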
